A study of Drosophila melanogaster with 9 samples.

Results

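The vacuolar proton ATPase (V-ATPase) subunit genes of Drosophila melanogaster were followed across 3 sorted brain cell populations and 2 stages. Every gene whose name in the deposited table begins with Vha was taken, which gave 33 of 16854 genes. The rule uses the gene name and no measured value. RNA levels are in FPKM, a count of sequenced fragments divided by transcript length and library depth, which allows levels of different genes to be set side by side per length.

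The samples were Kenyon cells (KC), the intrinsic neurons of the mushroom body, olfactory projection neurons (PN), which carry odor signals to them, and cells negative for both labels (double negative, DN). All came from brains without optic lobes of pooled males and females, adult or at 45 h after puparium formation (45 h APF). All flies carried GH146:Gal4>UAS:tomato/CyO together with MB247:LexA>LexAop:GFP/TM2. The GH146 driver labels many but not all projection neurons and the MB247 driver many but not all Kenyon cells, so each population is what its driver marks. The labels give 2 adult libraries per cell type and 1 pooled library per cell type at 45 h APF. The table holds 1 column per cell type and stage, and each adult column is the authors' mean. Single values therefore carry no standard deviation, and the depth behind the adult means is unknown. The spacing of low values implies a depth at 45 h APF of about 24.3 M reads in KC, 29.4 M in PN and 32.4 M in DN, with 91.2% to 94.8% of the values examined within 0.1 of a whole read. The adult samples were sequenced as 50-base reads on a HiSeq and the 45 h APF samples as 75-base reads on a NextSeq. Stage, instrument, read length and averaging therefore cannot be told apart. Column sums ran from 611610 to 720834 FPKM in the adult and from 886258 to 1055098 FPKM at 45 h APF, where the noncoding gene CR40469 alone held 89551 to 128393 FPKM.

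The V-ATPase is a rotary pump. Its cytosolic V1 sector (subunits A to H) hydrolyses ATP, and the turning stalk drives protons through the membrane sector V0 (subunits a, c, c'', d and e). It acidifies lysosomes and endosomes, and in neurons it also builds the proton gradient that vesicular transporters use to fill synaptic vesicles with transmitter. Flies have a single gene for some subunits and several genes for others, and of those gene copies some are used in most tissues while others are known mainly from testis or gut.

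The populations carried most markers of their labels. The Kenyon cell gene ey, a transcription factor, stood at 275 FPKM in adult KC against 0.143 and 7.58 in adult PN and DN, and at 228 FPKM in KC at 45 h APF against 1.21 and 5.42. Of 5 Kenyon cell markers, the limma test described below called 3 higher in KC than in PN and 4 higher than in DN, beside 0.304% and 0.293% of all genes. The marker toy was called in neither, and at 45 h APF it stood at 35.3 FPKM in KC against 39.3 in DN. Oaz, a zinc finger gene of projection neurons, stood at 172 FPKM in adult PN and 66.0 in PN at 45 h APF and at or below 0.255 FPKM in the other 4 columns. Muscle markers, at most 8.53 FPKM in sum elsewhere, summed to 214 FPKM in DN at 45 h APF. Glial markers were present as well, and they are given below beside the genes they move with.

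A nearly complete pump was present at high levels in every column. Of the 33 genes, 16 stood at 50 FPKM or more in all 6 columns, a level that 8.0% of all genes reached throughout. The 16 cover each of the 13 subunits of V1 and V0 and both accessory proteins. Their median was 664, 558 and 606 FPKM in adult KC, PN and DN, and 325, 354 and 315 FPKM at 45 h APF. A further 4 genes (Vha68-2, Vha100-2, VhaM9.7-c and Vha100-5) reached a mean of 1 FPKM over the 6 columns, and the other 13 never reached 1 FPKM in any column. The 33 genes together made up 1.48%, 1.71% and 2.03% of the column sum in adult KC, PN and DN, and 0.879%, 0.836% and 0.849% at 45 h APF.

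**Figure D1:**
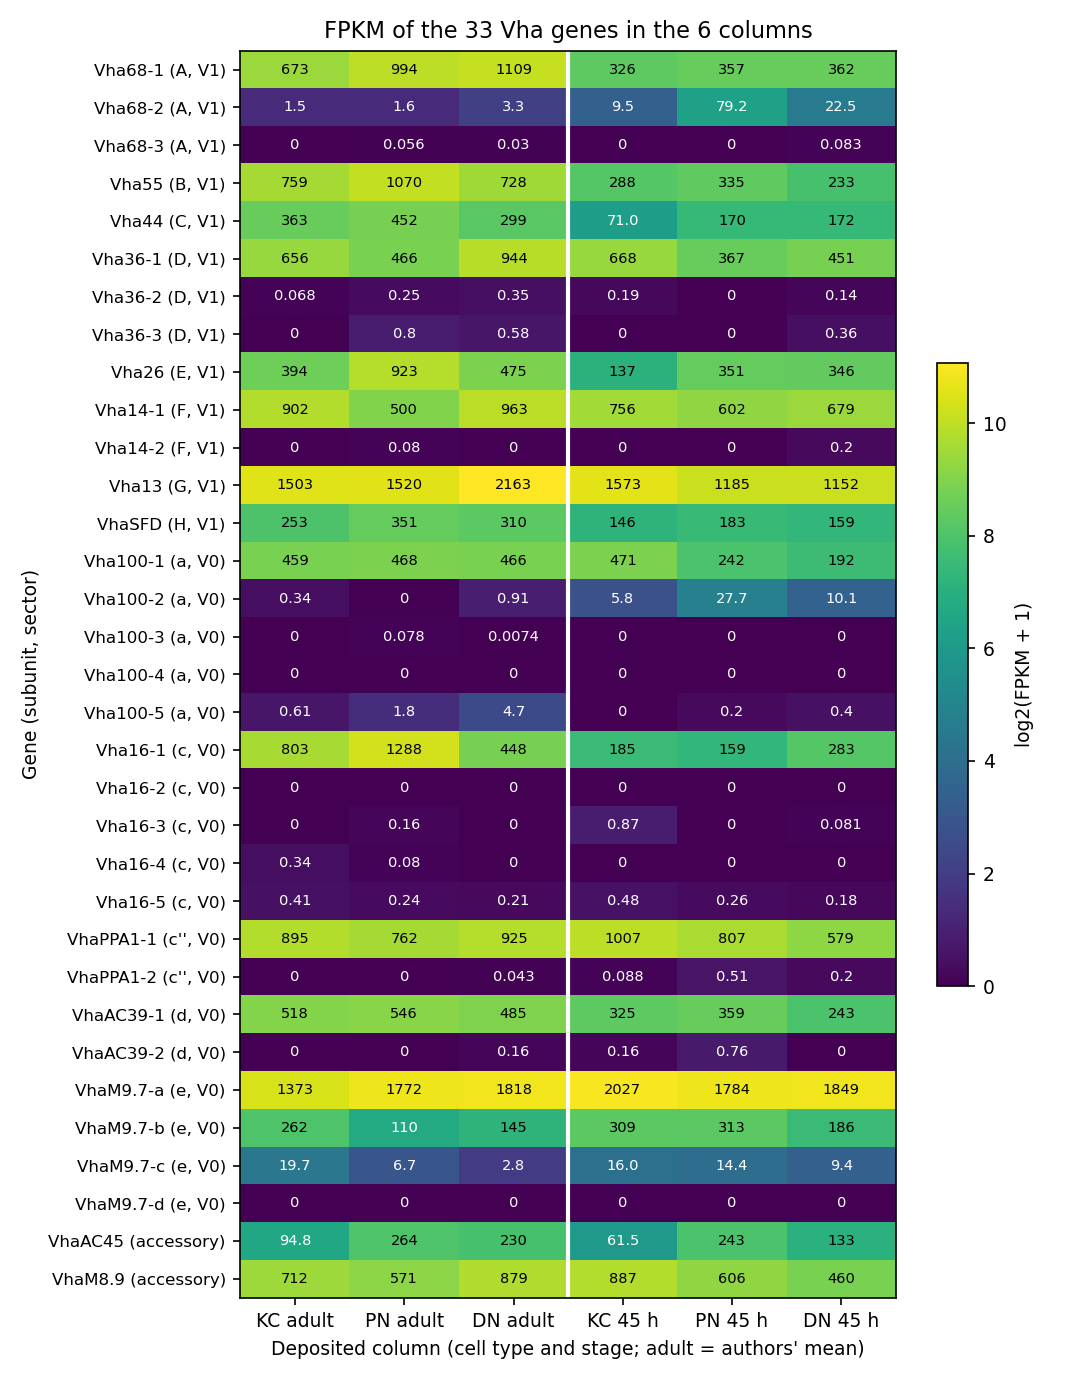
FPKM of each of the 33 Vha genes (rows, with subunit and sector) in the 6 deposited columns, adult on the left and 45 h APF on the right; colour is log2(FPKM + 1) and the printed number is the FPKM. Most families of copies show 1 bright row and several dark ones, with Vha68-2 and Vha100-2 visible mainly on the 45 h APF side.

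Genes without a second copy among those taken by the Vha prefix were high throughout. All 7 of these (Vha55, Vha44, Vha26, Vha13 and VhaSFD of V1, and the accessory genes VhaAC45 and VhaM8.9) stood at 50 FPKM or more in each column, and the lowest value was 61.5 FPKM, for VhaAC45 in KC at 45 h APF. Vha13, which encodes subunit G of the peripheral stalk, had the highest level of V1, with 1503, 1520 and 2163 FPKM in adult KC, PN and DN and 1573, 1185 and 1152 FPKM at 45 h APF. VhaSFD, which encodes subunit H, was among the lowest of V1, with 253, 351 and 310 FPKM in the adult and 146, 183 and 159 FPKM at 45 h APF. VhaM8.9, now named ATP6AP2 and known as the prorenin receptor in mammals, was between 460.1 and 887 FPKM. VhaAC45 has a relative by name outside the prefix, CG31030, which was higher in every column and is given below.

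Where several genes encode the same subunit, 1 copy held nearly all of the RNA for 5 subunits. For subunit D of the central stalk, Vha36-1 held at least 99.8% of the summed FPKM of its 3 copies in every column. Vha14-1 for subunit F, Vha16-1 for the proton-carrying c ring, VhaPPA1-1 for c'' and VhaAC39-1 for subunit d, which joins the ring to the stalk, held between 99.3% and all of theirs. These 5 are the copies known from most tissues. Their partners Vha36-2, Vha36-3, Vha14-2, Vha16-2, Vha16-3, Vha16-4, Vha16-5, VhaPPA1-2 and VhaAC39-2 all stayed below 1 FPKM, with 0.866 FPKM for Vha16-3 in KC at 45 h APF as the highest value. Vha16-2, VhaM9.7-d and Vha100-4, a gene known from the acid-secreting cells of the midgut, were listed at 0 in all 6 columns. By the inferred depths, 3 reads of Vha100-4 would have given 0.0366 to 0.0488 FPKM at 45 h APF. The testis markers bam, can, Mst87F, dj and topi were also near 0, with a sum of at most 0.687 FPKM in any column.

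For the remaining 3 subunits the highest copy was not the one classed here as broadly used. The classes rest on general knowledge of the fly genes and were not tested here. For the catalytic subunit A the high copy was Vha68-1, with 673, 994 and 1109 FPKM in adult KC, PN and DN and 326, 357 and 362 FPKM at 45 h APF. Vha68-2, the copy known from most fly tissues, stood at 1.53, 1.60 and 3.32 FPKM in the adult and at 9.48, 79.2 and 22.5 FPKM at 45 h APF. Thus Vha68-1 made up 99.7% to 99.8% of subunit A RNA in the adult columns and, at 45 h APF, 97.2% in KC, 81.9% in PN and 94.1% in DN. Vha68-3, known from testis, did not exceed 0.0826 FPKM.

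Subunit a anchors the pump in its membrane and is where cell types most often differ. Vha100-1, the copy known from neurons and their synaptic vesicles, stood at 459, 468 and 466 FPKM in adult KC, PN and DN and at 471, 242 and 192 FPKM at 45 h APF. It was nearly equal in the 3 adult columns and in KC at 45 h APF, and lower in PN and DN at 45 h APF. Vha100-2, a copy used in many tissues, was at 0.342, 0 and 0.910 FPKM in the adult and at 5.81, 27.7 and 10.1 FPKM at 45 h APF. Vha100-5 reached 4.68 FPKM in adult DN and was below that elsewhere, and its exons overlap those of the antisense gene CR44144. Vha100-3 was at most 0.0783 FPKM.

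The small subunit e was encoded mainly by VhaM9.7-a, which had the highest level of all 33 genes in 4 of the 6 columns, the exceptions being adult KC and adult DN, where Vha13 was higher. It stood at 1373, 1772 and 1818 FPKM in adult KC, PN and DN, and at 2027, 1784 and 1849 FPKM at 45 h APF. VhaM9.7-b, the copy known from most tissues, was at 262, 110.0 and 145 FPKM in the adult and 309, 313 and 186 FPKM at 45 h APF. VhaM9.7-c was lower, at 19.7, 6.71 and 2.81 FPKM in the adult and 16.0, 14.4 and 9.43 FPKM at 45 h APF. It shares its locus in the table with 5 other genes, among them the sodium channel partner gene tipE. Transcripts of VhaM9.7-a are 471 to 710 bases long and those of Vha13 703 to 943, and FPKM of such short transcripts depends strongly on the correction for fragment length.

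In all, by the classes of the copies, 6 of the 8 broadly used copies, the neuronal copy Vha100-1 and 2 of the 17 other copies stood at 50 FPKM or more throughout. The exceptions among the broadly used copies were Vha68-2 and Vha100-2. Those among the other copies were Vha68-1 and VhaM9.7-a. The other copies are the remainder after the broadly used and neuronal classes, and whether these 2 are restricted to some tissues was not tested. How reads shared by similar copies were assigned is not given in the sources used here, so the split between copies is uncertain to that extent.

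Several copies are close neighbours in the genome with very different levels. Coordinates are of the dm6 build. On chromosome 2L, Vha68-2 (12974322 to 12978607) ends 178 bases before the start of Vha68-3 (12978786 to 12981293), on the same strand, and Vha68-1 (13000770 to 13004107) follows 19476 bases further on the opposite strand. The highest levels in any column were 79.2, 0.0826 and 1109 FPKM in that order. On chromosome 3R, VhaPPA1-2 (14899606 to 14900277) and VhaPPA1-1 (14902330 to 14904061) lie 2052 bases apart and reached 0.511 and 1007 FPKM. Also on 3R, Vha100-4 (18386841 to 18389805) lies 517 bases from Vha100-2 (18390323 to 18399169), with 0 against 27.7 FPKM. Vha16-3 and Vha16-2, neighbours on 3L, were both below 1 FPKM.

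Adult and 45 h APF cells were compared to ask which subunit genes differ with stage. Cell type and stage were fitted as additive terms with limma to log2(FPKM + 1) of the 8867 genes whose mean over the columns was 1 FPKM or more. The fit tests the stage difference shared by the 3 cell types, and not against variation between replicate animals. Its error combines how much a gene's own difference varied among cell types with a trend over all genes. The gene itself has 2 residual degrees of freedom and the trend 4.1, so the error rests more on other genes. Of the 20 Vha genes tested, 6 were higher in the adult and 2 lower at a Benjamini-Hochberg adjusted p below 0.05. Of all genes tested, 8.03% were called higher and 17.0% lower. The median difference of the 20 genes was 0.48 on the log2 scale, and that of all genes tested was -0.23. The split of calls depends on the scale set for each column. Over all genes 712 were higher and 1505 lower as deposited, against 1398 higher and 726 lower with columns rescaled to the same sum, where 9 Vha genes were called higher and 2 lower and the medians were 1.00 for the Vha genes and 0.24 for all genes.

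The rise took in the catalytic hexamer of V1. Vha55, which encodes the nucleotide-binding subunit B, had 759, 1070.0 and 728 FPKM in adult KC, PN and DN, against 288, 335 and 233 FPKM at 45 h APF. All 3 adult values lay above all 45 h APF values, and the difference of 1.57 on the log2 scale (SE 0.24) had a limma adjusted p of 0.0119. Vha68-1, for subunit A, rose by 1.38 (SE 0.26, limma adjusted p = 0.0182), and its lowest adult value, 673 FPKM, lay above its highest at 45 h APF, 362 FPKM. Its differences within cell types were 1.04, 1.47 and 1.61 for KC, PN and DN. The share of all genes whose stages separate as in Vha55 and Vha68-1 was not counted, so such a separation may be common.

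The genes for V1 subunits C, E and H were called higher too. Vha44, which encodes subunit C, a part that comes off when the pump is disassembled, had 363, 452 and 299 FPKM in adult KC, PN and DN, against 71.0, 170.0 and 172 FPKM at 45 h APF. Its difference was 1.51 (SE 0.34, limma adjusted p = 0.0277), and it was 2.34 in KC, 1.40 in PN and 0.80 in DN. Vha44 exons overlap those of Hmgs on the opposite strand. Vha26, for subunit E of the peripheral stalk, had 394, 923 and 475 FPKM in the adult, against 137, 351 and 346 FPKM at 45 h APF, a difference of 1.12 (SE 0.30, limma adjusted p = 0.0425). VhaSFD rose by 0.90 (SE 0.23, limma adjusted p = 0.0375), by nearly the same amount in each cell type (0.79, 0.94 and 0.96).

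In V0, Vha16-1, the c ring gene, was called higher. It had 803, 1288 and 448 FPKM in adult KC, PN and DN, against 185, 159 and 283 FPKM at 45 h APF. The difference was 1.93 (SE 0.45, limma adjusted p = 0.0311), and it was 2.11 in KC, 3.01 in PN and 0.66 in DN. VhaAC39-1, for subunit d, had 518, 546 and 485 FPKM in the adult, against 325, 359 and 243 FPKM at 45 h APF. It did not pass, with a limma adjusted p of 0.0654. It was called higher under each of the 4 other scalings of the columns. The difference for Vha100-1 was 0.73 (SE 0.32, limma adjusted p = 0.136), with -0.04 in KC, 0.95 in PN and 1.28 in DN, and with columns rescaled to the same sum it was called higher, as was VhaAC45.

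The other V1 and V0 genes at high level did not pass the test. Their differences were 0.40 for Vha13, 0.46 for Vha36-1, 0.16 for Vha14-1, 0.14 for VhaPPA1-1, -0.20 for VhaM9.7-a and -0.70 for VhaM9.7-b, with limma adjusted p-values of 0.151 to 0.734. The sign for VhaM9.7-a depends on the scaling, since it was 0.32 when each column was rescaled to the same sum. The accessory genes VhaAC45 (0.51) and VhaM8.9 (0.18), the low copy VhaM9.7-c (-0.72) and Vha100-5 (1.30) did not pass either.

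**Figure D2:**
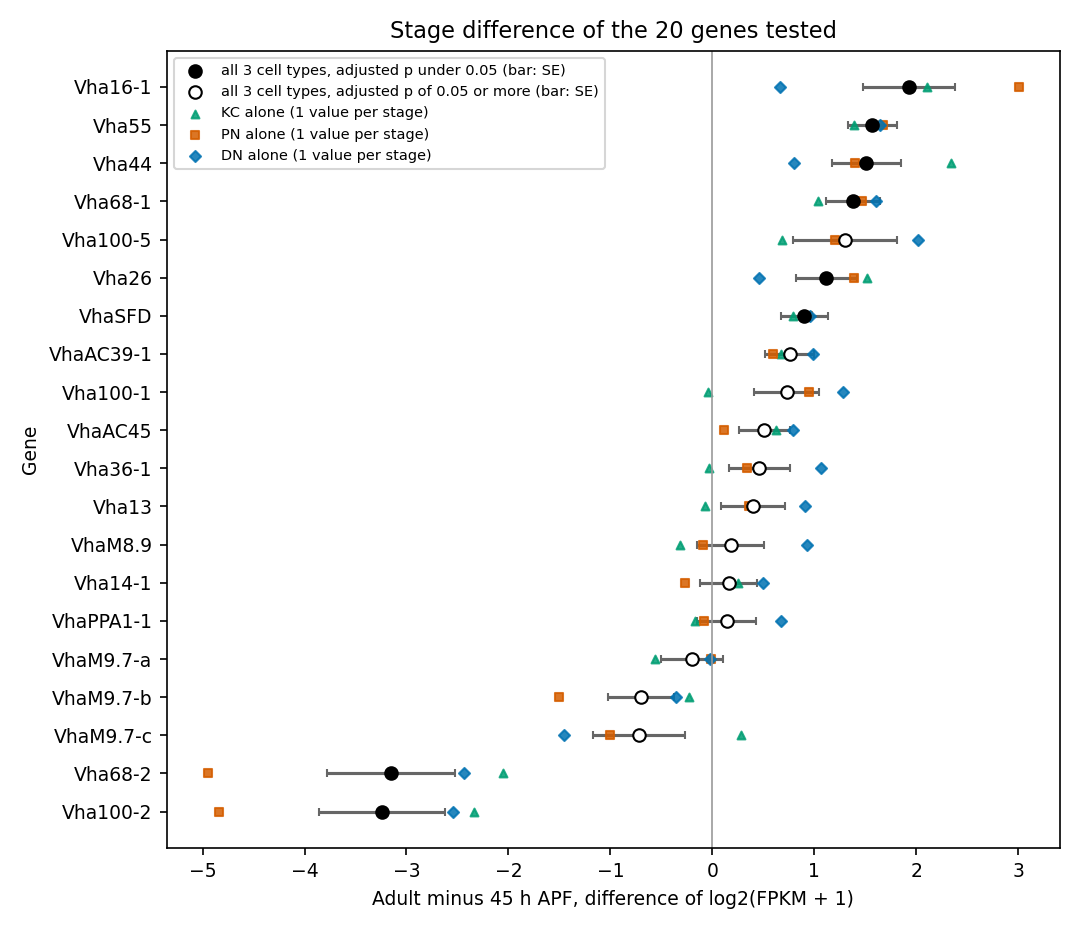
Adult minus 45 h APF difference of log2(FPKM + 1) for the 20 Vha genes tested, ordered by size; circles with bars are the limma estimate over the 3 cell types and its SE (filled where the adjusted p is below 0.05), and small symbols are KC, PN and DN alone. Vha16-1, Vha55, Vha44, Vha68-1, Vha26 and VhaSFD are filled on the right, and Vha68-2 and Vha100-2 stand apart on the left at -3.15 and -3.24. The PN symbol of Vha100-2 is set by the pseudocount, since adult PN is listed at 0.

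Subunit sums show how uneven this was within the complex. Over the 8 subunits of V1, with copies added together, the highest sum was 5.94, 4.33 and 7.23 times the lowest in adult KC, PN and DN, and 22.1, 6.97 and 7.24 times at 45 h APF. Over the 5 subunits of V0 the ratio was 3.59, 4.02 and 4.39 in the adult and 12.6, 13.3 and 10.1 at 45 h APF. Subunit G was the highest of V1 and subunit e the highest of V0 in each column. The lowest of V0 at 45 h APF was subunit c in KC (187 FPKM) and PN (159 FPKM) and subunit a in DN (202 FPKM). These ratios compare values within a column, so scaling of whole columns does not move them. The highest sums rest, however, on the short genes Vha13 and VhaM9.7-a, whose FPKM depends strongly on the correction for fragment length. Read length also differed between the stages, and its part in the ratios was not tested.

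The 2 genes called lower in the adult were the second copies Vha68-2 and Vha100-2, whose values are given above. Vha68-2 fell by 3.15 on the log2 scale (SE 0.63, limma adjusted p = 0.0208), with differences of -2.05 in KC, -4.95 in PN and -2.44 in DN. Vha100-2 fell by 3.24 (SE 0.62, limma adjusted p = 0.0187), with differences of -2.34 in KC and -2.54 in DN. It was listed at 0 in adult PN, so no difference is given there and the fitted size depends on the pseudocount. As a share of their subunit, Vha68-2 was 0.226%, 0.160% and 0.299% in adult KC, PN and DN, against 2.83%, 18.1% and 5.85% at 45 h APF. Vha100-2 was 0.0744%, 0 and 0.193%, against 1.22%, 10.3% and 5.0%. By the inferred depth, about 401 reads of Vha100-2 and 537 of Vha68-2 stand behind the KC values at 45 h APF, and about 2315 and 5427 behind those of PN.

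Glial markers were lower in the adult in part, with 2 of 7 (repo and wrapper) called lower and none higher, beside 17.0% and 8.03% of all genes. The glial transcription factor gene repo was at 0.480, 0.347 and 1.82 FPKM in adult KC, PN and DN, against 6.42, 29.9 and 12.3 FPKM at 45 h APF, and fell by 3.03 (SE 0.58, limma adjusted p = 0.0193). In KC, where both copies were lower in the adult, 3 glial markers were not. Gat was at 3.88 FPKM in adult KC and 2.37 FPKM in KC at 45 h APF, Eaat1 at 7.61 and 5.15 FPKM, and nrv2 at 104 and 100.01 FPKM. The order PN, DN, KC at 45 h APF was the same for Vha68-2, Vha100-2 and 6 of the 7 glial markers, all but wrapper. It was not particular to glial markers. Irk2, listed as a tubule and gut marker, had it (42.3, 28.2 and 10.2 FPKM), as did the lysosome genes Npc2a, LManII and Ppt1. The share of all genes with this order was not counted. Of 3 fat body markers, 2 were called lower in the adult, Lsp2 (-3.91) and Fbp1 (-2.16), and both were highest in DN at 45 h APF. Over the 6 columns, which share libraries and the stage split, Pearson's r with the glial markers ran from 0.71 to 0.99 for Vha68-2 and from 0.64 to 1.00 for Vha100-2. With the 5 neuronal markers it ran from -0.89 to -0.62 and from -0.94 to -0.72. The glial markers summed to 125, 60.6 and 218 FPKM in adult KC, PN and DN and to 174, 1589 and 665 FPKM at 45 h APF. None was at 0, and 4, 4 and 5 of 7 reached 1 FPKM in the adult and 7 of 7 at 45 h APF. Their part in the stage difference was not tested. In sorted bulk samples fewer cells of a type and less RNA per cell cannot be told apart.

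**Figure D3:**
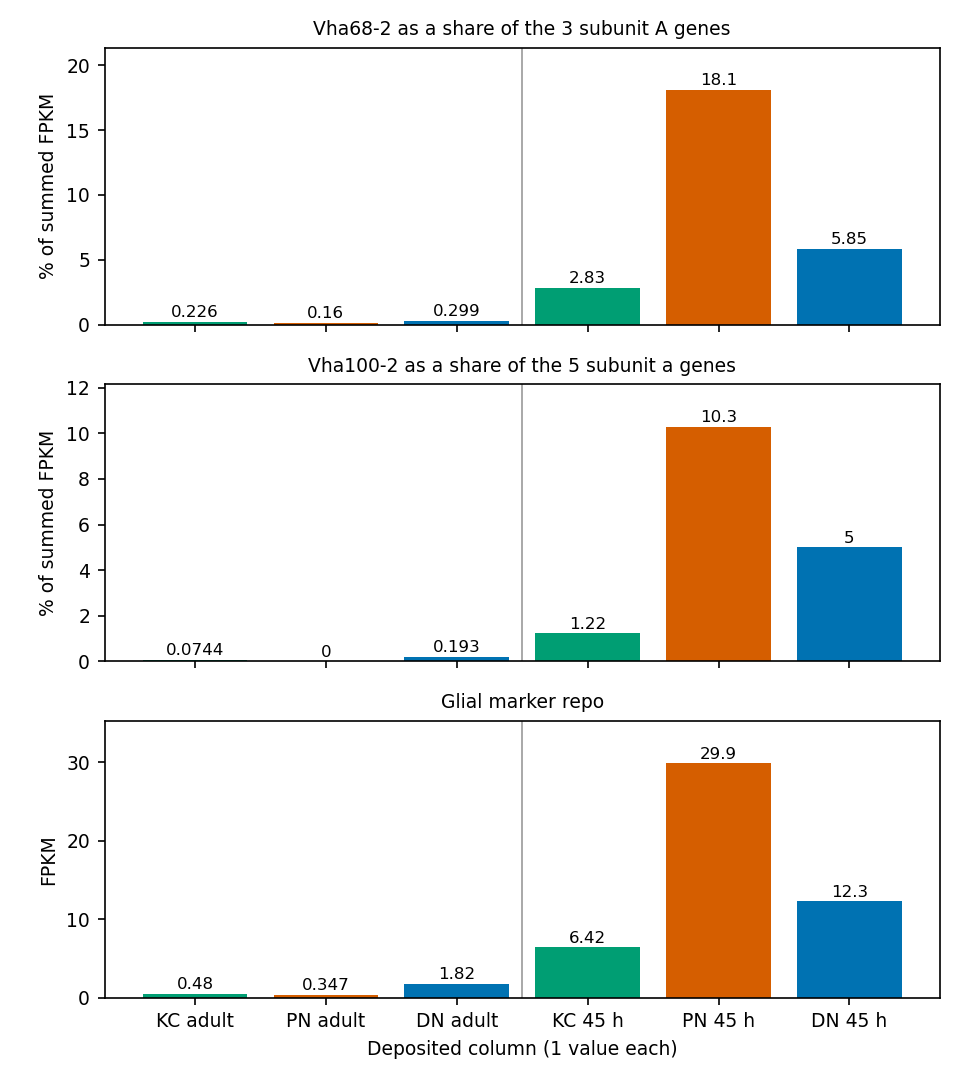
Vha68-2 as a percentage of the summed FPKM of the 3 subunit A genes (top), Vha100-2 as a percentage of the 5 subunit a genes (middle) and the FPKM of the glial marker repo (bottom), each in the 6 columns with 1 value per bar. All 3 panels are highest in PN at 45 h APF (18.1%, 10.3% and 29.9 FPKM), with DN next and KC lowest of the 3 at that stage.

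The calls rest on few columns. Leaving out single columns, the 8 called Vha genes became 6 without adult DN, 4 without adult KC and 3 without adult PN. They became 1 (Vha55) without KC at 45 h APF, and none without PN or without DN at 45 h APF. Without PN at 45 h APF, 7 of 20 Vha genes had an unadjusted limma p under 0.05, beside 2238 of all 8776 genes tested. Without DN at 45 h APF it was 8 of 20, beside 3240 of all 8798 genes tested. Such p-values were therefore common over all genes too. Calls over all genes fell as well, to 152 higher and 299 lower without KC at 45 h APF, 15 and 7 without PN at 45 h APF, and 0 and 0 without DN at 45 h APF. The direction of each of the 8 was the same in all 14 alternatives tried. The differences of the 3 cell types already shared a sign for each of these genes. Leaving out a column therefore could not reverse the direction, and its constancy there is no further support.

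Within single cell types there is 1 value per stage and no test, and differences of at least 2-fold were counted. In KC, 5 of 19 Vha genes kept were that much higher in the adult and 2 that much lower, beside 19.5% and 24.6% of all genes. In PN, 5 were higher and 3 lower of 19, beside 24.9% and 31.4%. In DN, 5 were higher and 3 lower of 20, beside 12.1% and 21.7%. The 5 higher genes in KC and in PN were Vha68-1, Vha55, Vha44, Vha26 and Vha16-1, while in DN they were Vha68-1, Vha55, Vha36-1, Vha100-1 and Vha100-5. Lower in all 3 were Vha68-2 and Vha100-2, joined by VhaM9.7-b in PN and VhaM9.7-c in DN.

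Kenyon cells were then set against the other populations, at both stages together and within each. No Vha gene passed the limma test for any pair of cell types. For KC minus PN the share of all genes called was 0.304% higher and 0.485% lower, for KC minus DN 0.293% and 0.462%, and for PN minus DN 0.0226% and 0.0%. At an unadjusted limma p under 0.05 there were 2, 2 and 0 of the 20 Vha genes, beside 1378, 971 and 341 of all 8867 genes tested. This test has little room with 1 value per cell type and stage, and a p above the threshold does not show that levels were equal.

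VhaAC45 was lower in KC than in PN and DN at both stages by size, without passing the test. It encodes the accessory glycoprotein AC45, which assists assembly and delivery of the pump. Adult KC held 94.8 FPKM, adult PN 264 FPKM and adult DN 230.4 FPKM. At 45 h APF it was 61.5 FPKM in KC, 243 FPKM in PN and 133 FPKM in DN. Of the 18 Vha genes kept at both stages it was the 1 gene with KC below PN and below DN by 2-fold or more each time, a share of 5.56%, beside 3.91% of all genes. Over both stages the difference was -1.72 for KC minus PN (limma adjusted p = 0.0915) and -1.19 for KC minus DN (limma adjusted p = 0.228). CG31030, now named VhaAC45RP and so a relative by name that the Vha prefix does not take in, was far more abundant. It stood at 1440.5, 806 and 1722 FPKM in adult KC, PN and DN and at 1188, 566 and 657 FPKM at 45 h APF.

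The counts within each stage were of the order of the shares over all genes. At 45 h APF, against PN, 5 of 19 Vha genes were lower in KC by 2-fold or more (Vha68-2, Vha44, Vha26, Vha100-2 and VhaAC45) and none higher, beside 18.1% lower and 9.07% higher of all genes. Against DN, 4 were lower (Vha68-2, Vha44, Vha26 and VhaAC45) and 1, the neuronal copy Vha100-1, was higher, at 471 against 192 FPKM, beside 19.9% and 9.54%. For PN minus DN, Vha68-2 and Vha100-2 were higher and none lower, beside 7.31% and 9.36%. Vha26 and Vha44, for the stalk subunit E and for subunit C, were each low in KC and nearly equal between PN and DN, with PN minus DN differences of 0.02 and -0.01.

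In the adult, against PN, Vha26 and VhaAC45 were lower in KC by 2-fold or more and VhaM9.7-b and VhaM9.7-c higher, beside 19.9% lower and 12.1% higher of all genes. Against DN, VhaAC45 and Vha100-5 were lower and VhaM9.7-c higher, beside 13.1% and 8.39%. VhaM9.7-c was highest in KC at both stages, with differences from DN of 2.44 in the adult and 0.71 at 45 h APF (limma adjusted p = 0.367 over both). For PN minus DN, Vha16-1 (1288 against 448 FPKM) and VhaM9.7-c were higher and Vha36-1 (466 against 944 FPKM) and Vha100-5 lower, beside 16.9% and 9.49%.

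**Figure D4:**
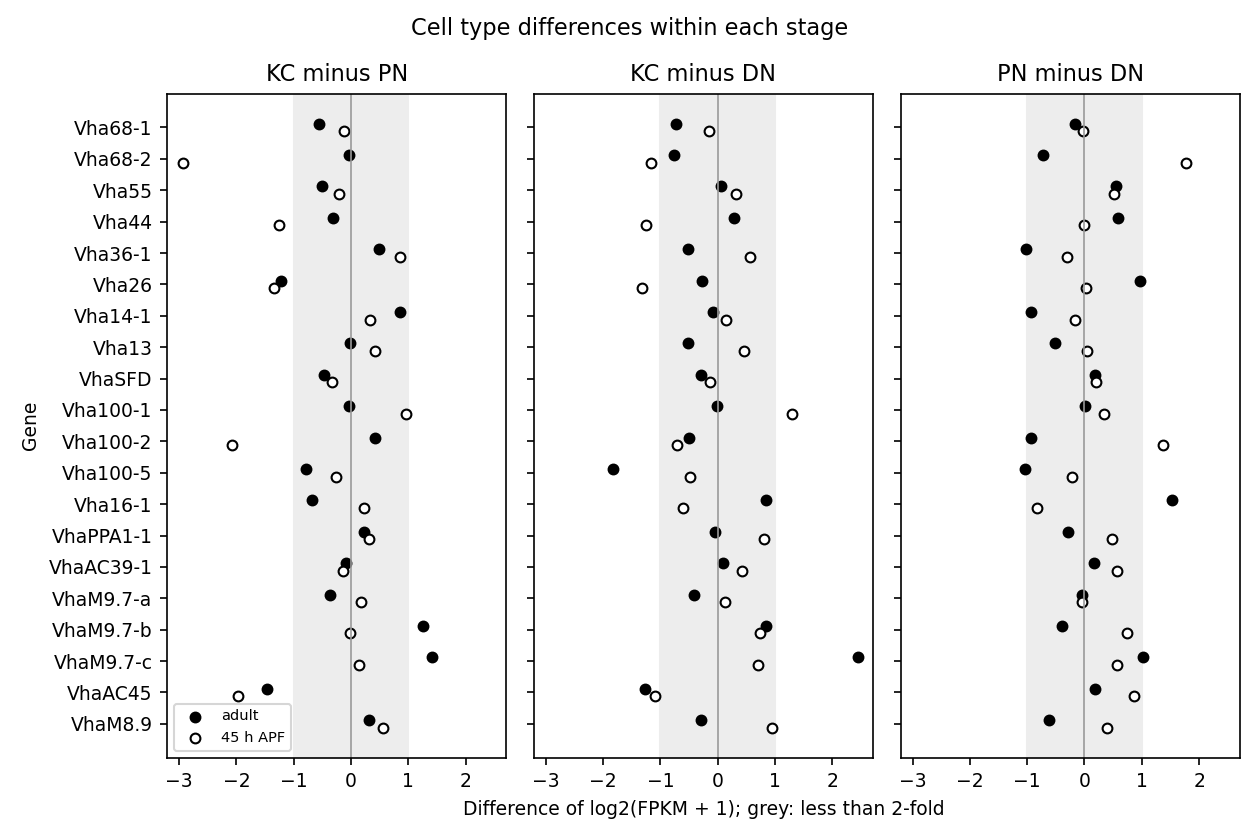
Differences of log2(FPKM + 1) between cell types (KC minus PN, KC minus DN, PN minus DN) for 20 Vha genes, filled for the adult and open for 45 h APF, with 1 value each; the grey band marks less than 2-fold. Most points lie in the band, and VhaAC45 is left of it at both stages in the first 2 panels.

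Genes that work with the pump were measured as further context. Of 8 genes for assembly, partners and vesicular chloride transport, 2 were called higher in the adult and 2 lower, beside 8.03% and 17.0% of all genes. With columns rescaled to the same sum 5 were higher and 1 lower, beside 1398 and 726 of all 8915 genes tested. Rbcn-3B, of the complex that reassembles V1 with V0, had 18.4, 50.2 and 26.0 FPKM in adult KC, PN and DN, against 9.54, 11.4 and 10.9 FPKM at 45 h APF, and rose by 1.37 (SE 0.36, limma adjusted p = 0.0421). The gene mtd, a relative of mammalian OXR1, rose by 2.83 (SE 0.56, limma adjusted p = 0.0203). ClC-b, a chloride transporter gene, fell by 1.61 (SE 0.25, limma adjusted p = 0.0126), and CG5969 fell by 1.24 (SE 0.24, limma adjusted p = 0.0191). Mitf, the regulator of lysosome and V-ATPase genes known from fly and mammals, was low, at 1.01, 5.51 and 2.27 FPKM in adult KC, PN and DN and 0.111, 0.983 and 2.20 FPKM at 45 h APF.

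Lysosome, growth signalling and transporter genes were counted beside the same shares of all genes, 8.03% higher and 17.0% lower. Of 11 lysosome genes tested none was higher in the adult and 3 were lower, namely Npc2a, a sterol carrier (-1.55), LManII, a mannosidase (-2.96), and Ppt1, a thioesterase (-2.13). Of 9 genes of lysosomal growth signalling none was higher and 2 were lower, CG5189 (Lamtor2, -1.27) and CG5110 (Lamtor3, -1.48). Of 5 transporters that load synaptic vesicles with the help of the proton gradient, 3 were higher and none lower, VAChT for acetylcholine (3.88), VGAT for GABA (1.42) and Vmat for monoamines (1.60), while VGlut for glutamate (-0.67) and prt (-0.25) did not pass. Limma adjusted p-values of these 8 genes ran from 0.0203 to 0.0435. With columns rescaled to the same sum the counts were 1 higher and 2 lower for the lysosome genes, none and none for growth signalling, and 3 higher and none lower for the transporters. On that scale 1398 of all 8915 genes tested were higher and 726 lower. Of the 5 neuronal markers, the synaptic genes nSyb (2.32), Syt1 (3.28) and brp (2.10) were called higher in the adult. The 5 markers summed to 1046, 3305 and 921 FPKM in adult KC, PN and DN, against 199, 260.4 and 422 FPKM at 45 h APF. Their part in the stage differences of the Vha genes was not tested.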

How the data were processed

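The deposited values were FPKM made by the authors, 1 column per pooled 45 h APF library and, per the column names, adult columns averaged by the authors. Per the submitters' processing notes the tools were TopHat and Cufflinks and the build dm6. The handling of shared reads and of strand is not given in the sources used here. RNA was polyA selected and made into SmartSeq V2 libraries, with 25 M reads planned, per the labels' protocols.

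Of 16859 lines, 5 with a date for a name were left out. Of the 33 genes, 32 were matched to Ensembl release 115 by symbol and VhaM8.9 by synonym. Stage and cell type effects were tested with limma 3.58.1 (R 4.3.3) on log2(FPKM + 1) in an additive model over the 6 columns, with a mean-variance trend, a minimum mean of 1 FPKM, 2 residual degrees of freedom and p-values adjusted over all genes tested. Differences are on the log2 scale of the deposited values plus 1, which understates changes of low genes. Within a stage or cell type, sizes have no test, and 2-fold differences were counted among genes with a mean of 1 FPKM over the columns concerned. All Vha genes are named, and other genes come from lists. The members, copy classes and lists were chosen with earlier results of these data known. Of 14 lysosome genes listed, 13 were matched and 11 passed the minimum. The low-value filter, pseudocount, column scaling and left-out columns were varied. No p measures variation between animals.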

Additional observations from a re-analysis of the deposited data

Results flagged for a closer look

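Stage differences of opposite sign between cell types, at least 1 apart on the log2 scale, were found for 4 genes. Only the Vha genes were screened, so no share of all genes stands beside this count. Each value is 1 adult column minus 1 column at 45 h APF, and the differences between cell types were not tested. The values are as deposited. Column sums were lower in the adult, at 720834 against 1055098 FPKM in KC and 704373 against 979179 FPKM in PN. Rescaling to the same sum would therefore raise the differences and turn the negative values of Vha36-1, Vha100-1 and VhaM8.9 positive. For these genes the opposite sign holds as deposited and not at the same sum. Vha36-1 changed by -0.03 in KC and 1.07 in DN, which are -1.09 apart. Vha100-1, the neuronal copy of subunit a, changed by -0.04 in KC and 1.28 in DN, which are -1.31 apart. VhaM9.7-c changed by 0.28 in KC, -1.0 in PN and -1.45 in DN, so that KC was 1.28 from PN and 1.74 from DN. VhaM8.9 changed by -0.32 in KC, -0.09 in PN and 0.93 in DN, so that DN stood apart by -1.25 for KC minus DN and by -1.02 for PN minus DN. DN is the higher one for 3 of the 4 genes, and the median stage difference of all genes was -0.31 in KC, -0.30 in PN and -0.19 in DN.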

How the results depend on the processing

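The 8 Vha genes called between stages became 0 with no filter on low values, where no gene of the whole table was called. There 9 of 33 Vha genes had an unadjusted limma p under 0.05, beside 3577 of all 16854 genes. With 1 column left out the count of called Vha genes ranged from 0 to 6. It was 7 with a pseudocount of 5, 11 with columns rescaled to the same sum and 9 with upper quartile scaling, with quantile normalization and with columns centred on the median stage difference, an alternative chosen after seeing the data. VhaAC39-1 was called higher in those 4 scalings. Of the 14 alternatives, Vha26 and VhaSFD lost the call in 7, Vha16-1, Vha44 and Vha68-1 in 6, Vha68-2 and Vha100-2 in 4 and Vha55 in 3. The differences were 1.38 to 2.56 for Vha16-1 (limma adjusted p of 0.017 to 0.237), 0.92 to 1.64 for Vha26 (0.0177 to 0.219), 1.10 to 2.03 for Vha44 (0.0148 to 0.203), 1.26 to 1.90 for Vha68-1 (0.00962 to 0.126) and 0.87 to 1.41 for VhaSFD (0.0146 to 0.177). Vha55 had a difference of 1.52 to 2.09 (limma adjusted p of 0.00631 to 0.114), Vha68-2 of -3.70 to -2.18 (0.0149 to 0.201) and Vha100-2 of -5.06 to -1.69 (0.0199 to 0.19). Uncalled stage differences changed sign for VhaM9.7-a (0.32 with the same sum, 0.00 with quantile normalization, 0.04 centred) and, without either DN column, for Vha14-1 (-0.01), VhaPPA1-1 (-0.13) and VhaM8.9 (-0.20), whose highest values with 1 column left out were 0.38, 0.30 and 0.42. No Vha gene was called between cell types in any alternative. Vha genes 2-fold apart between stages in DN numbered 17 with the same sum and 14 with quantile normalization, in place of 8. Those between adult PN and DN numbered 2 with a pseudocount of 5, in place of 4. The shares of all genes under these settings were not counted, so the changed counts cannot be read as particular to the Vha genes. The causes of these changes were not tested. No paired analysis was possible because the adult replicates are averaged in the table and its columns carry no replicate number. Counting error and replicate spread of the adult values are unknown.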
